A study of Mus musculus with 9 samples.

Results

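The 10 genes described here are immediate early genes: the AP-1 subunits Fos, Fosb, Jun, Junb and Jund, the transcription factors Egr1, Nr4a1 and Atf3, and the response genes Ier2 and Ier3. They were taken by name from the tables of normalized counts, and all 10 were found among 55302 symbols; 17428 symbols had a value above 0 somewhere. The libraries came from lung fibroblasts of mice whose mammary tumor had been resected, taken while metastases in the lung were at an early stage. Of the 9 libraries, 4 were of mice given vehicle (PBS, also written saline) and 5 of mice given doxorubicin (DOX), a topoisomerase II poison of the anthracycline class, with 1 library per mouse. The methods of the study give 2 intraperitoneal doses of 5 mg/kg, the first 4 days after resection and the next 5 days later, with lungs taken 24 h after the last dose. All mice carried the injected tumor, had it resected 2 weeks later and were females of 8 weeks at injection. The methods describe 4T1 tumors in BALB/c mice and EO771 tumors in C57BL/6 mice, and the labels do not say which of these the sequenced mice had. Cells were sorted as CD45-, EpCAM- and PDGFRα+, and the methods add CD31-. Libraries are named PBS1 to PBS4 and DOX1 to DOX5 by the replicate number of their label.

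Immediate early genes are switched on within minutes of a growth factor, cytokine or stress signal, without new protein synthesis, because the factors that act on their promoters, such as SRF with its ternary complex partners and CREB, are already present and are activated by MAP kinases. Fos and Jun proteins pair through leucine zippers to form AP-1, which in fibroblasts acts on genes of proliferation, matrix remodelling and inflammation. The transcripts are short lived and their products induce phosphatases and other brakes, so that levels in a tissue can change quickly, and the handling of tissue during dissociation is also known to induce them.

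No gene of the 10 passed the test between DOX and PBS. Of the 9 that had values high enough to be tested, 0 passed at an adjusted p of 0.05, and of all 2604 genes tested 0% passed (limma on log2(value + 1), Benjamini-Hochberg adjustment). At an unadjusted p under 0.05 the counts were 0 of the 9 and 162 of all genes, or 6.22%, with 3.03% higher and 3.19% lower in DOX. Fitted means were higher in DOX for 7 genes of the 9 and lower for Junb and Nr4a1, against 49.4% higher among all genes tested. Their median log2 fold change was 0.42, against -0.01 for all genes, and it was 0.22 without PBS4 and 0.18 without DOX2. On recovered whole reads edgeR passed 0 of 2618 genes, DESeq2 0 of 17172 and limma-voom 0 of 2618, with 149, 463 and 160 at an unadjusted p under 0.05. Of the 10 genes, only Junb was among these, with limma-voom (unadjusted p = 0.043, adjusted p = 0.758). With no filter on low values 3 of 17428 genes passed, or 0.0172%, and none of the 10 was among them.

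**Figure D1:**
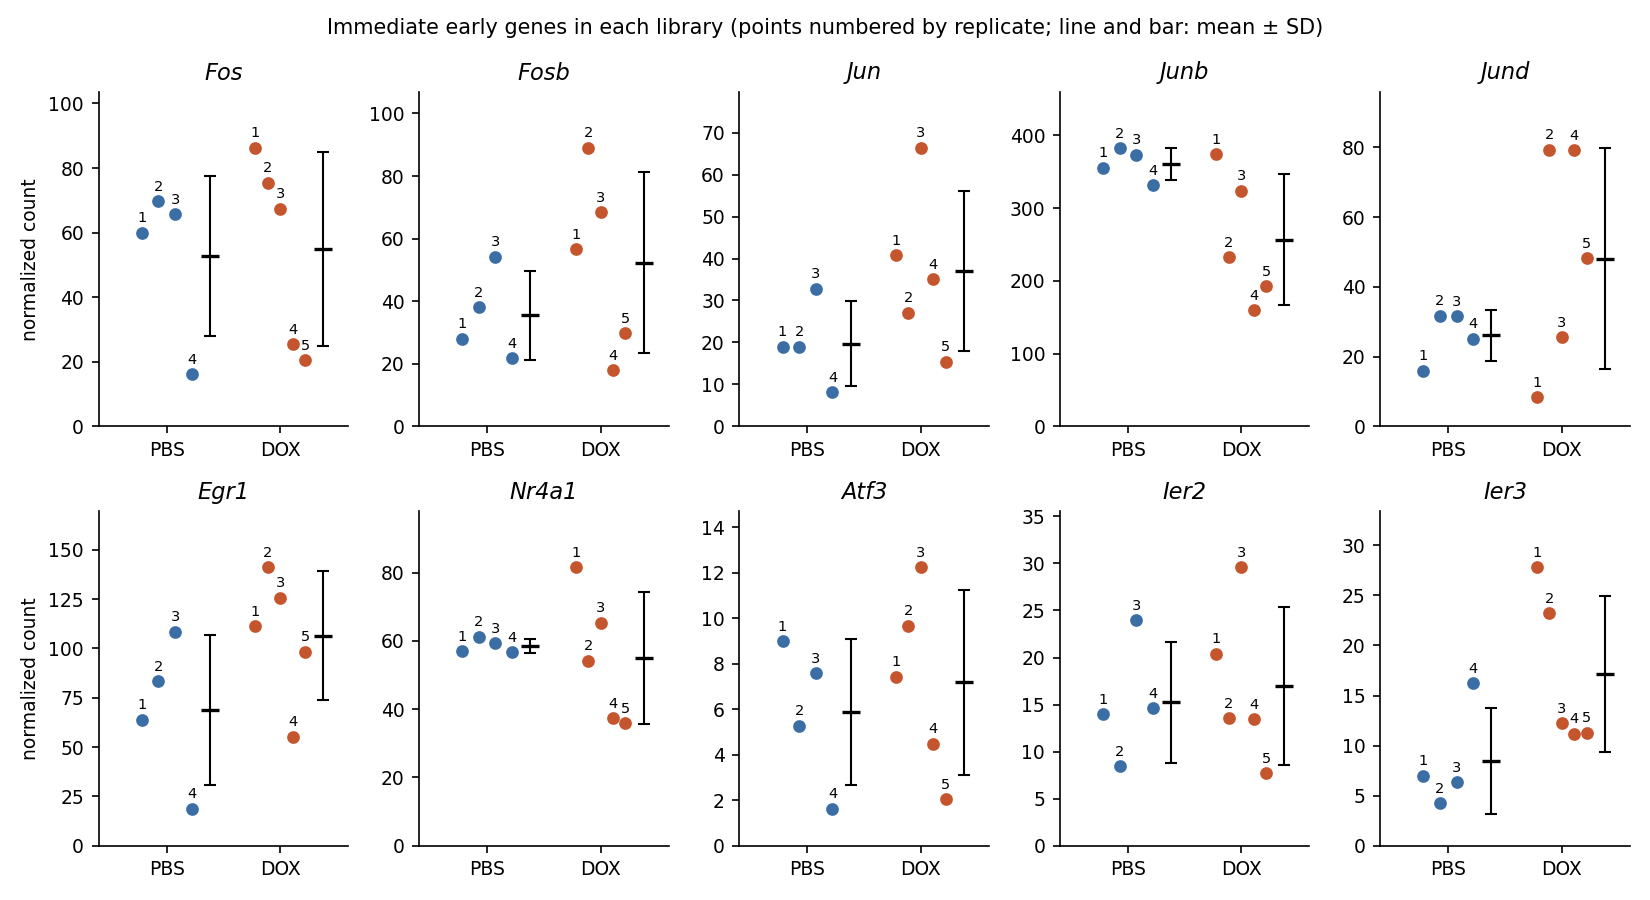
Normalized counts (y axis, read count divided by the library's size factor) of the 10 genes in the 4 PBS libraries (blue) and the 5 DOX libraries (orange), with each point numbered by replicate. Black lines and bars beside the points give the mean and SD; the groups overlap in every panel, and the PBS points of Junb (331 to 382) and Nr4a1 (56.7 to 61.2) lie close together.

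Library PBS4 stood apart in its cell markers. Fibroblast markers summed to 2023 normalized counts in PBS4 and to 2999 to 4097 in the other 8 libraries, led by the collagen gene Col1a1, at 1027 in PBS4 and at 1169 to 2333 elsewhere. Granulocyte markers summed to 1174 in PBS4 and to 33.8 to 93.4 elsewhere, pan-immune markers to 344 and 6.50 to 43.5, and epithelial markers to 483 and 15.8 to 179. Epithelial markers also differed among the other libraries, at 15.8 to 36.6 in PBS1 to PBS3 and 44.5 to 179 in DOX, and granulocyte markers did so at 33.8 to 37.0 and 65.8 to 93.4, where Ly6g was the main gene. Endothelial, red blood cell and smooth muscle markers summed to 305, 81.8 and 206 in PBS4 and to 107 to 204, 0 to 7.17 and 87.2 to 215 elsewhere. Pdgfra, the gene of the sorting gate, was low in all libraries, at 0.81 to 12.0, and Ptprc, which encodes CD45, was at 0 to 7.17. Epcam was at 0 in 6 of the 9 libraries. A ribosomal RNA gene took 35.3% of the reads of DOX2 and 5.74% to 16.8% of the reads of the others. In sorted cells measured in bulk, fewer cells of a type and less RNA per cell cannot be told apart.

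The strand that was counted bears on all values below. MARS-seq sequences tags at the 3′ ends of transcripts and preserves their strand, and the strand setting of the authors' count is not given in the sources used here. For 202 coding genes whose last 500 bases lie under an annotated antisense gene, the antisense gene had the higher mean in 169, or 83.7%, with a median of 55.7 normalized counts against 3.73 for the coding gene. Eef1a1, a translation factor that cells make in large amounts, had a mean of 16.8, whereas Actb had 21987. The values of the immediate early genes may thus leave out most reads of their own transcripts. Fos, Fosb, Egr1, Ier2, Ier3 and Nr4a1 have no annotated gene on the other strand in GENCODE M21. Jun, Junb and Jund have one, and Atf3 has a small RNA gene, Gm24748, that was at 0.

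Promoter sequences of 8 of the 10 genes were found in a RefSeq table of GRCm38.p6. It holds 250 bases before and 50 after each start and had no entry for Egr1 or Ier2. For Jund the 120 bases before its RefSeq start, 70697619 to 70697738, lie upstream of the start in GENCODE M21, 70698949. The letters counted for Jund are thus not next to that start. The letters TGACG, the core of the cAMP response element that CREB and ATF proteins recognise, were searched on both strands and found in 5 of the 8, namely Fos, Fosb, Junb, Atf3 and Nr4a1, and in 20.8% of all 32851 promoters of that length. The full element TGACGTCA, which contains the core, was in 0 of the 8 and in 1.79% of all. An AP-1 site, TGANTCA, was in 0 of the 8 and in 7.81% of all, and the CArG box that SRF binds was in 0 of the 8 and in 1.63% of all. TATAAA was found in Fos and Junb and in 13.6% of all, and the EGR letters GCGGGGGCG in Fosb and Nr4a1 and in 2.91% of all. A match describes these letters in this window and is not a binding site. Sequence beyond 250 bases before the start was not searched, nor were letters close to a pattern. Thus 0 of the 8 does not mean that these genes lack such elements. The window of Jun holds tgacatca, which matches neither TGACGTCA nor TGANTCA. The 120 bases before the start are shown for the members of the most closely correlated pairs described below, except Egr1. They are also shown for Jun, which lacks the core. They read 5′ to 3′ on the strand of the gene, and capitals mark TGACG or its complement CGTCA.
Fos, chr12:85473770-85473889, plus strand: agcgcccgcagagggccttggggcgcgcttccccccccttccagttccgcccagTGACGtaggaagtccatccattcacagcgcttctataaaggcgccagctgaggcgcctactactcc
Fosb, chr7:19310046-19310165, minus strand: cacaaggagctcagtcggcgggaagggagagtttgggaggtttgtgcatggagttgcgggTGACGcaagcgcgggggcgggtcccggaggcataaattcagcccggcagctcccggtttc
Junb, chr8:84978749-84978868, minus strand: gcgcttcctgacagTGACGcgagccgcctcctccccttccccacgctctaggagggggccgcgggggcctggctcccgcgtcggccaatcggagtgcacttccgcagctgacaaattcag
Nr4a1, chr15:101266726-101266845, plus strand: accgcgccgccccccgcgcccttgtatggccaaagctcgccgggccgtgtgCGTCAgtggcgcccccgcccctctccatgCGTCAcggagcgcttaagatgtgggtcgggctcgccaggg
Jun, chr4:95052223-95052342, minus strand: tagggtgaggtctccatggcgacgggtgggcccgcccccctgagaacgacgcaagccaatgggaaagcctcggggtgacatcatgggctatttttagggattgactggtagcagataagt

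Of the Fos family, Fos (chromosome 12 of mm10, 85473890 to 85477273, plus strand) encodes the founding AP-1 subunit that needs a Jun partner to bind DNA. It was at 59.9, 69.7, 65.6 and 16.2 normalized counts in PBS1 to PBS4 and at 86.3, 75.5, 67.4, 25.4 and 20.5 in DOX1 to DOX5. PBS4, DOX4 and DOX5 were low and the other 6 libraries high, so that each group held both kinds. The means were 52.9 ± 24.8 in PBS (SD, n = 4) and 55.0 ± 30.1 in DOX (SD, n = 5), a log2 fold change of 0.03 (standard error, SE, 0.53, adjusted p = 0.991). The sign was negative without PBS4, at -0.45, and with limma-voom, at -0.08. The spread exceeded counting error, with a chi-square per degree of freedom of 13.8 in PBS and 24.2 in DOX. PBS4, DOX4 and DOX5 were also the libraries with the most reads, at 734114, 887830 and 1285816, against 432322 to 691945 for the others, and the part of depth in the low values was not tested.

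Fosb (chromosome 7, 19302696 to 19310051, minus strand) encodes a related subunit that is induced with Fos and also occurs as a shorter, longer-lived form. Its values were 28.0, 38.0, 54.3 and 21.9 in PBS1 to PBS4 and 56.6, 89.0, 68.4, 17.9 and 29.7 in DOX1 to DOX5. DOX1 to DOX3 were above all PBS libraries and DOX4 was below them all, so the groups overlapped. The means were 35.5 ± 14.2 in PBS (SD, n = 4) and 52.3 ± 28.8 in DOX (SD, n = 5), with a log2 fold change of 0.42 (SE 0.48, adjusted p = 0.908). It was 0.22 without PBS4, 0.18 without DOX2 and 0.74 without DOX4.

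Jun (chromosome 4, 95049034 to 95052222, minus strand, a single exon) encodes c-Jun, the main partner of Fos and the substrate that gives the JNK kinases their name. It was at 19.0, 19.0, 32.8 and 8.10 in PBS1 to PBS4 and at 40.8, 27.1, 66.4, 35.1 and 15.4 in DOX1 to DOX5. DOX1, DOX3 and DOX4 were above all PBS libraries, and DOX5 lay below 3 of them. The means were 19.7 ± 10.1 in PBS (SD, n = 4) and 37.0 ± 19.0 in DOX (SD, n = 5), a log2 fold change of 0.87 (SE 0.52, adjusted p = 0.796), which was 0.52 without PBS4.

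Junb (chromosome 8, 84974484 to 84978718, minus strand) encodes a subunit that can hold back c-Jun activity and cell proliferation. Its values of 356, 382, 374 and 331 in PBS1 to PBS4 stood close together, whereas those of DOX1 to DOX5 were 374, 232, 324, 160 and 193. DOX2 to DOX5 lay below all 4 PBS libraries, and DOX1 lay among them. The means were 361 ± 22.4 in PBS (SD, n = 4) and 256 ± 89.9 in DOX (SD, n = 5). The log2 fold change was -0.56 (SE 0.27, 95% interval -1.12 to 0.01, adjusted p = 0.761), with an unadjusted p of 0.052. Without any 1 library it ranged from -0.71 to -0.41. The PBS libraries differed by little more than counting error (chi-square per degree of freedom 1.51), and the DOX libraries by far more (40.1).

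Jund (chromosome 8, 70698949 to 70700616, plus strand, a single exon) encodes the Jun protein that many resting cells hold without induction. It was at 16.0, 31.7, 31.6 and 25.1 in PBS1 to PBS4 and at 8.35, 79.4, 25.5, 79.2 and 48.2 in DOX1 to DOX5. DOX2, DOX4 and DOX5 were above all PBS libraries and DOX1 below them all. The means were 26.1 ± 7.40 in PBS (SD, n = 4) and 48.1 ± 31.7 in DOX (SD, n = 5), with a log2 fold change of 0.53 (SE 0.58, adjusted p = 0.898). That value was 1.04 without DOX1, 0.33 without PBS1 and 0.26 without DOX2 or without DOX4, and edgeR gave 0.86.

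The Jun genes share their loci with genes on the other strand, which were looked at after the values were known. The antisense gene Gm11175 (chromosome 8, 70699162 to 70700080, minus strand) lies with all 877 of its exonic bases over the exon of Jund. Its normalized tag counts, which are not divided by length, were above those of Jund in every library, at 143, 130, 124 and 229 in PBS1 to PBS4 and 162, 288, 216, 161 and 242 in DOX1 to DOX5. Without PBS4, each DOX library lay above each PBS library, as 3.38% of genes did. With PBS4 the groups overlapped, and the log2 fold change was 0.46 (SE 0.28, adjusted p = 0.804). Within the overlap, reads of Jund and Gm11175 cannot be told apart without the strand setting. The 3′ end of Gm11175 lies in the overlap, whereas that of Jund, at 70700616, lies beyond it. Junos, whose exons cover 232 bases of Jun, was at 39.3 ± 18.7 in PBS (SD, n = 4) and 62.6 ± 23.2 in DOX (SD, n = 5), with a log2 fold change of 0.69 (SE 0.40, adjusted p = 0.783). Prdx2, a peroxiredoxin that removes hydrogen peroxide, covers the last 173 bases of Junb and was far lower than Junb, at 0 to 10.1 in PBS and 0 to 17.6 in DOX.

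**Figure D2:**
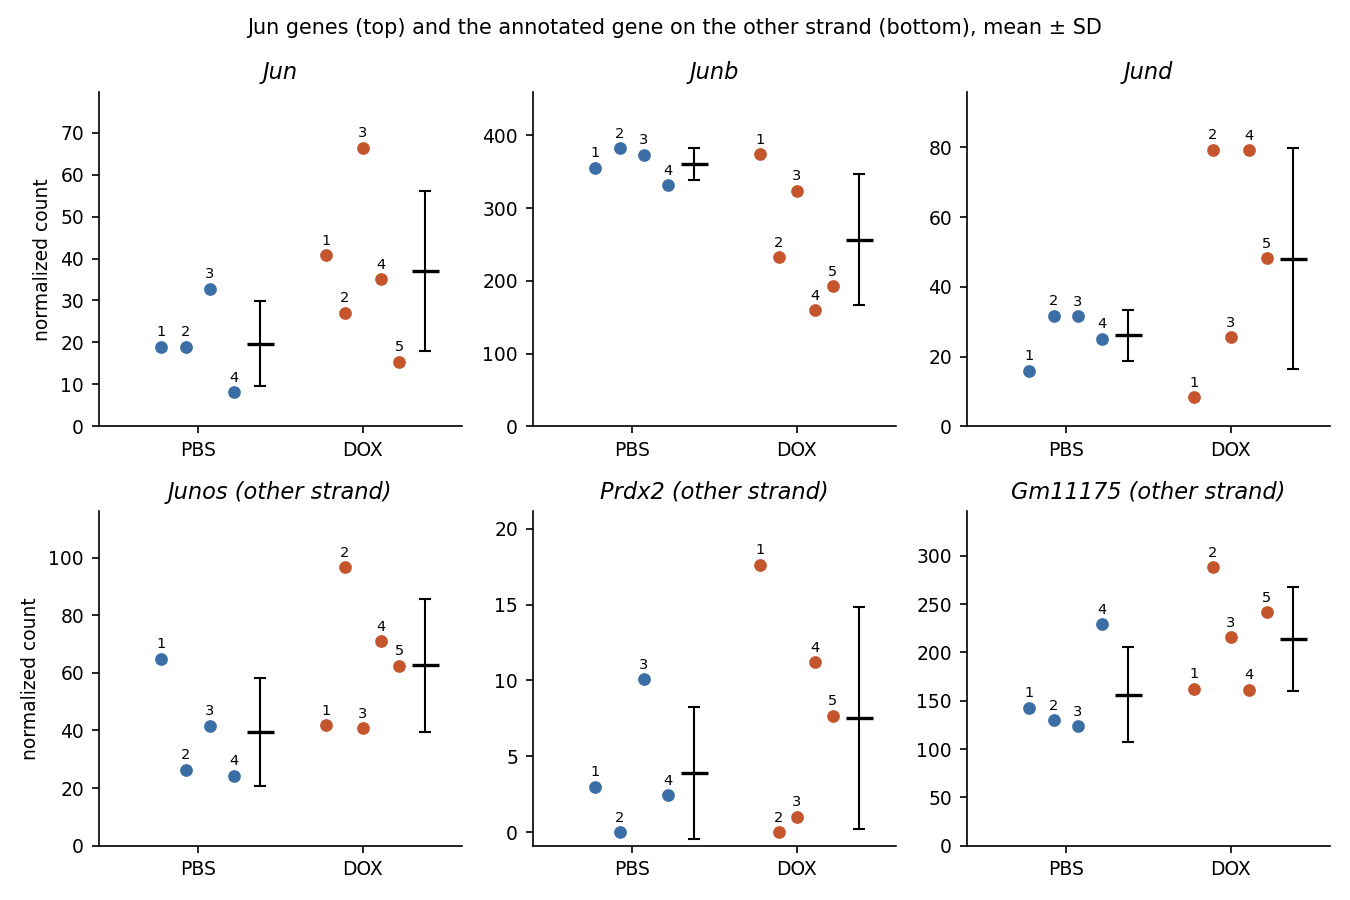
Normalized counts (y axis) of Jun, Junb and Jund in the upper row and of the annotated gene on the other strand of each locus in the lower row, with points numbered by replicate and lines and bars giving mean and SD. Gm11175 is at 124 to 288 where Jund is at 8.35 to 79.4, and Prdx2 is at 0 to 17.6 where Junb is at 160 to 382.

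Shares were taken of the summed normalized counts of Fos, Fosb, Fosl1, Fosl2, Jun, Junb and Jund. Junb made up 63.4% to 75.3% in PBS and 42.6% to 62.1% in DOX, so that the groups did not overlap, though PBS3 (63.4%) and DOX1 (62.1%) lay close. The mean share was 67.6% ± 5.30 in PBS (SD, n = 4) and 53.3% ± 7.90 in DOX (SD, n = 5). This share was formed after the values were seen and was not tested. Of single genes tested, 1.38% had all DOX libraries below all PBS libraries and 1.27% all above. How often such shares separate was not determined. The strand limit given above for Jun and Jund applies to this share too. Fos, Fosb, Fosl1 and Fosl2 together made up 17.1% to 27.5% in PBS and 17.5% to 37.9% in DOX, with the groups overlapping. The summed counts of all these Fos and Jun family genes were 440 to 589 in PBS and 331 to 602 in DOX.

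Egr1 (chromosome 18, 34859823 to 34864984, plus strand) encodes a zinc finger factor that serum, mechanical stress and wounding induce through SRF. It was at 63.9, 83.4, 109 and 18.6 in PBS1 to PBS4 and at 111, 141, 126, 55.3 and 98.4 in DOX1 to DOX5. DOX1 to DOX3 were above all PBS libraries, DOX4 was below PBS1 to PBS3, and PBS4 was lowest. The means were 68.6 ± 38.0 in PBS (SD, n = 4) and 106 ± 32.8 in DOX (SD, n = 5), a log2 fold change of 0.81 (SE 0.45, adjusted p = 0.775). Without PBS4 it was 0.28 (adjusted p = 0.892). In PBS4 the fibroblast markers were also lowest, as given above, and the part of these other cells in its value was not tested.

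Nr4a1 (chromosome 15, 101254269 to 101274795, plus strand) encodes Nur77, an orphan nuclear receptor that restrains profibrotic signalling in fibroblasts. Its values in PBS1 to PBS4 were 56.9, 61.2, 59.3 and 56.7, and those in DOX1 to DOX5 were 81.7, 54.2, 65.4, 37.3 and 35.9. The PBS libraries lay within a narrow range, and the DOX libraries reached to both sides of it. The means were 58.6 ± 2.14 in PBS (SD, n = 4) and 54.9 ± 19.3 in DOX (SD, n = 5), with a log2 fold change of -0.16 (SE 0.34, adjusted p = 0.977). The PBS spread was below what counting alone gives on average (chi-square per degree of freedom 0.0793), and that of DOX was 9.37. Of the 10 genes, Nr4a1 and Junb had the smallest ratio of highest to lowest library, at 2.28 and 2.39, while Jund had the largest at 9.50.

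Atf3 (chromosome 1, 191170296 to 191218039, minus strand) encodes a stress-induced factor that pairs with Jun proteins and often represses its targets. It was at 8.99, 5.28, 7.57 and 1.62 in PBS1 to PBS4 and at 7.42, 9.68, 12.3, 4.48 and 2.05 in DOX1 to DOX5, from 2 to 12 reads a library. Only DOX3 reached 10, so Atf3 was not tested, and the fit with no filter gave a log2 fold change of 0.24 (adjusted p = 0.924). PBS4, DOX4 and DOX5 were its lowest libraries, the same 3 as for Fos. The means were 5.87 ± 3.22 in PBS (SD, n = 4) and 7.18 ± 4.05 in DOX (SD, n = 5).

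Ier2 (chromosome 8, 84661331 to 84662852, minus strand, a single exon) encodes a small nuclear protein of the serum response. It was at 14.0, 8.44, 23.98 and 14.6 in PBS1 to PBS4 and at 20.4, 13.5, 29.6, 13.4 and 7.68 in DOX1 to DOX5, so that the DOX range enclosed the PBS range. The means were 15.2 ± 6.44 in PBS (SD, n = 4) and 16.9 ± 8.40 in DOX (SD, n = 5). The log2 fold change was 0.10 (SE 0.56, adjusted p = 0.985) and turned negative without PBS2 or without DOX3, at -0.13 and -0.12.

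Ier3 (chromosome 17, 35821684 to 35822923, plus strand) encodes a stress-inducible protein that modulates cell survival and ERK signalling. It was at 6.99, 4.22, 6.31 and 16.2 in PBS1 to PBS4 and at 27.8, 23.2, 12.3, 11.2 and 11.3 in DOX1 to DOX5. PBS4 lay above DOX3 to DOX5, and the other 3 PBS libraries lay below all 5 DOX libraries. The means were 8.43 ± 5.31 in PBS (SD, n = 4) and 17.2 ± 7.83 in DOX (SD, n = 5), a log2 fold change of 0.99 (SE 0.62, adjusted p = 0.806). Without PBS4 the PBS mean was 5.84 ± 1.44 (SD, n = 3) and the log2 fold change 1.33 (adjusted p = 0.657). Ier3 was then among the 3.38% of genes with every DOX library above every PBS library, against 3.07% with every DOX library below, and 7.83% of genes had an unadjusted p under 0.05, with 4.61% higher in DOX. With all 9 libraries these non-overlapping genes were 1.27% above and 1.38% below, and none of the 10 was among them. Ier3 was counted by 4 to 30 reads a library. PBS1 to PBS3 were below the filter value of 10, so Ier3 was tested through its DOX libraries and PBS4. Entry through the higher group makes such a separation more likely. The summed granulocyte and epithelial markers were also higher in all 5 DOX libraries than in PBS1 to PBS3. In DOX most of the granulocyte sum was Ly6g, at 49.7 to 84.4, which was at 81.8 in PBS4. S100a8, the largest part of the granulocyte sum of PBS4 at 756, was at 0 to 15.3 in DOX and 2.00 to 5.05 in PBS1 to PBS3. Of the DOX libraries, DOX1 had the most Ier3 and the lowest epithelial sum (44.5), and DOX2 had the lowest granulocyte sum (65.8). PBS4 had more Ier3 than PBS1 to PBS3 and DOX3 to DOX5, and less than DOX1 and DOX2. The part of the cells that carry these markers in the values of Ier3 was not tested.

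**Figure D3:**
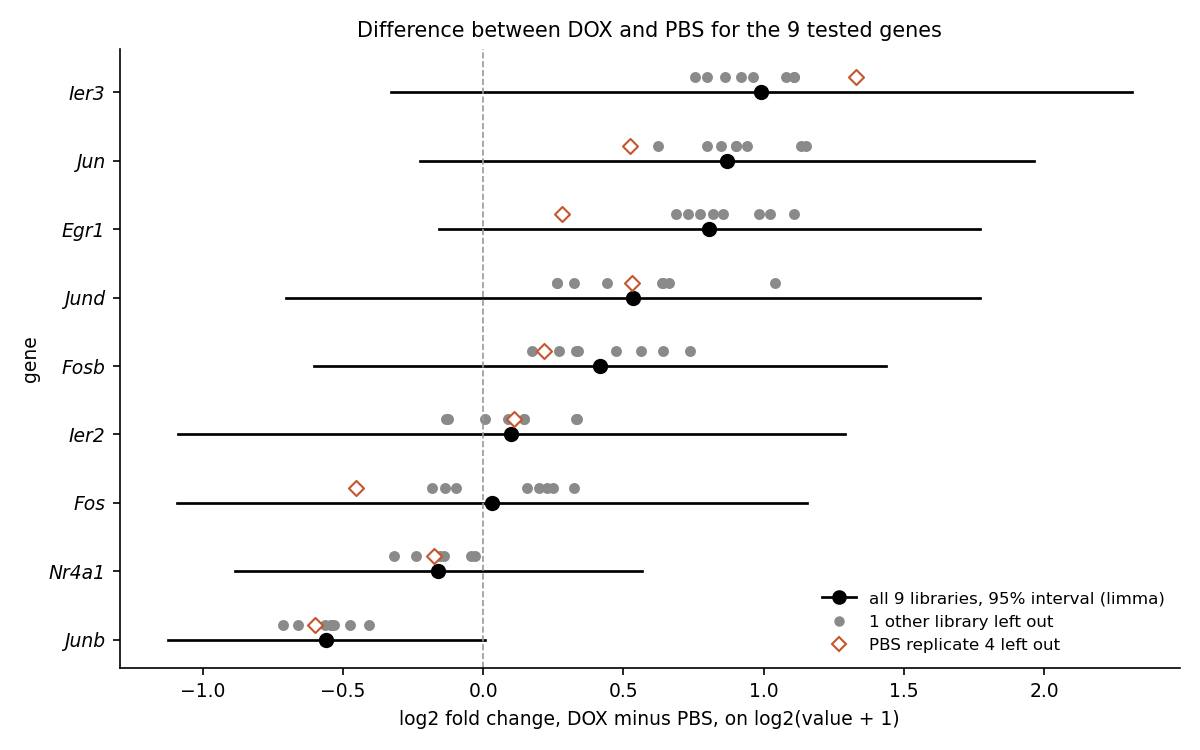
Log2 fold change of DOX over PBS (x axis, on log2(value + 1)) for the 9 tested genes (y axis). Black points with lines are the fit to all 9 libraries with its 95% interval, grey points the fits with 1 other library left out and open diamonds the fit without PBS4; all 9 intervals include 0, and the diamond of Fos lies at -0.45.

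Other subunits that pair within AP-1 and the related ATF and Maf proteins, 16 genes chosen by name, gave 6 tested genes, of which 2 had a higher and 4 a lower mean in DOX, and 0 passed the test. Their median log2 fold change was -0.42. Fosl2, which encodes the subunit Fra-2, was at 41.2 ± 10.8 in PBS (SD, n = 4) and 27.9 ± 10.9 in DOX (SD, n = 5), a log2 fold change of -0.60 (SE 0.42, adjusted p = 0.826). Atf4, the factor of the integrated stress response, had a log2 fold change of -0.46 (SE 0.41), and the small Maf genes Mafg and Maff had -1.15 (SE 0.88) and -0.37 (SE 0.42). Fosl1, the gene of the subunit Fra-1, was at 0 to 4.00 and was not tested.

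Among 26 other immediate early genes, mostly transcription factors, 13 were tested, with 4 higher, 9 lower and 0 passing, and the median was -0.11. Cebpb, a factor of inflammatory gene induction, was at 36.9 ± 9.69 in PBS (SD, n = 4) and 24.6 ± 13.5 in DOX (SD, n = 5), a log2 fold change of -0.71 (SE 0.48, adjusted p = 0.821). Rhob, an inducible small GTPase, had -0.47 (SE 0.35) and the factors Klf4 and Csrnp1 had 0.36 (SE 0.62) and -0.25 (SE 0.46). Of the close relatives of Egr1, Egr4 was at 0 in all 9 libraries and Egr3 in 8 of them. Egr2 was tested, and was at 6.33 to 18.9 in PBS and 0.75 to 23.5 in DOX.

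Feedback regulators, which shut off MAP kinase, NF-κB and cytokine signals, gave 9 tested genes of 20, of which 8 had a higher and 1 a lower mean in DOX, with a median of 0.37 and 0 passing. The lower one was Nfkbia, which encodes the NF-κB inhibitor IκBα, at 42.0, 59.1, 70.7 and 39.7 in PBS1 to PBS4 and 40.8, 32.9, 36.8, 20.2 and 29.7 in DOX1 to DOX5. Only DOX1 reached into the PBS range, and the log2 fold change was -0.70 (SE 0.37, adjusted p = 0.769). Socs3, a cytokine signalling inhibitor, had 0.73 (SE 0.53) and the pseudokinase gene Trib1 0.56 (SE 0.60). Dusp1, the phosphatase of p38, JNK and ERK, had 0.54 (SE 0.56), and -0.12 without PBS4, where it was at 5.67 against 22.3 to 60.0 elsewhere.

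Of 20 upstream factors and kinases only 3 were tested, with 2 higher and 1 lower. The lower one was Mapk3, which encodes ERK1, the kinase that activates the ternary complex factors. Mapk3 was at 15.0, 16.9, 20.2 and 27.5 in PBS1 to PBS4 and at 6.50, 3.87, 5.11, 5.98 and 13.3 in DOX1 to DOX5. All DOX libraries lay below all PBS libraries, as did 1.38% of the genes tested. Of the DOX libraries only DOX5 reached 10, so Mapk3 passed the filter through its PBS libraries, which makes such a separation more likely. The means were 19.9 ± 5.53 in PBS (SD, n = 4) and 6.95 ± 3.69 in DOX (SD, n = 5), a log2 fold change of -1.46 (SE 0.61) with an unadjusted p of 0.030, which did not pass (adjusted p = 0.761). Mrtfb, a coactivator of SRF, had 0.58 (SE 1.04) and Fgfr1, a growth factor receptor, 0.19 (SE 0.63).

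Textbook AP-1 target genes of fibroblasts gave 9 tested genes of 20, with 4 higher, 5 lower, a median of -0.13 and 0 passing. The chemokine gene Ccl2 had a log2 fold change of -1.16 (SE 0.77, adjusted p = 0.820), Tgfb1 had -1.15 (SE 1.19), the cyclin gene Ccnd1 0.59 (SE 0.93) and the neutrophil attractant Cxcl1 -0.20 (SE 0.37). Heat shock genes, which respond to stress through another factor, HSF1, gave 7 tested of 15, with 5 higher, 2 lower, a median of 0.13 and 0 passing. The inducible HSP70 genes Hspa1a and Hspa1b had 0.90 (SE 0.49) and 0.95 (SE 0.52), and 0.46 for Hspa1b without PBS4. These near-identical copies share reads, so each value is uncertain. Hspa5, the chaperone of the endoplasmic reticulum, had -1.10 (SE 0.65) and Hspa8, the constitutive HSP70, 0.51 (SE 0.50).

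Across the 9 libraries the tested immediate early genes varied together more often than not. Of 36 pairs, 26 (72.2%) had a Pearson's r above 0 on log2(value + 1), against 49.8% of all pairs of the 2604 genes. The 36 had a median of 0.28 and a mean of 0.24, while the median over all pairs was -0.002. All pairs share the libraries and their size factors. As deviations from the group means, the median was 0.45 and 25 pairs were above 0. In exact permutation tests, 9 pairs had an unadjusted p under 0.05 and 0 passed after adjustment over the 36. The share of all gene pairs with such a p was not determined, so the 9 cannot be set against it.

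Among the closest pairs were Fosb with Egr1 and Junb with Nr4a1. For Fosb and Egr1, r was 0.78 (exact permutation p = 0.005, adjusted p = 0.097) and Spearman's coefficient was 0.97 (exact permutation p = 1.7e-04, adjusted p = 0.006), the 1 pair of 36 that passed by rank. Without DOX2 and DOX4, the libraries farthest from the median of Fosb, r was 0.80. Within groups r was 0.76 (adjusted p = 0.012 from exact permutations within groups), with 0.89 over the 4 PBS and 0.95 over the 5 DOX libraries. PBS4 lay off the line of the others, with less Egr1 for its Fosb, and without it r was 0.94.

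For Fos the libraries fell into 3 low ones, PBS4, DOX4 and DOX5, and 6 high ones, so that an r over all 9 includes the gap between them. Over all 9 libraries, shown in the plot of correlations as a description, r was 0.78 with Fosb, 0.73 with Egr1 and 0.71 with Nr4a1. Over the 6 libraries with high Fos alone, r was 0.55 with Fosb (exact permutation p = 0.246) and 0.57 with Egr1 (exact permutation p = 0.233), and it was 0.67 with Nr4a1 (exact permutation p = 0.144). The highest of the 8 over these 6 libraries was that with Ier3, at 0.77 (exact permutation p = 0.067), against -0.03 over all 9, and none of the 8 had a p under 0.05. With Nr4a1, r was 0.90 without PBS4 and DOX5, the libraries farthest from the median of Fos. For Jun and Egr1 the r of 0.71 fell to 0.13 without PBS4 and DOX3, and thus rests on these libraries, with 0.96 over the 4 PBS and 0.12 over the 5 DOX libraries.

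Junb and Nr4a1 had the highest r of the 36, at 0.87 (exact permutation p = 0.003, adjusted p = 0.092), with a Spearman's coefficient of 0.78 (adjusted p = 0.207). Without DOX4 and DOX5, in which both genes were lowest, r was 0.47, so that the r over all 9 rests in part on these 2 libraries. Over the 5 DOX libraries r was 0.96, and over the 4 PBS libraries, which hold neither, it was 0.89. The PBS spread was below counting error for Nr4a1 (chi-square per degree of freedom 0.0793) and little above it for Junb (1.51). The r over PBS can thus not be told from counting error. Within groups r was 0.96 (exact permutation p = 0.021, adjusted p = 0.155).

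Jund had negative values with Junb and Nr4a1, though no pair of Jund passed after adjustment. Its r was below 0 with 7 of the other 8 genes, as were 50.2% of all pairs of tested genes, but it was close to 0 with Jun (-0.06), Ier3 (-0.09), Fosb (-0.10) and Egr1 (0.07). By Spearman's coefficient, Fosb (0.05) and Egr1 (0.15) were above 0. The mean r of Jund was -0.31, whereas the mean r of the others with their partners ranged from 0.07 for Ier3 to 0.46 for Fosb. With Junb it was -0.78 (exact permutation p = 0.013, adjusted p = 0.105), with a Spearman's coefficient of -0.60, and -0.73 without DOX4 and DOX5. With Nr4a1 it was -0.76 (exact permutation p = 0.018, adjusted p = 0.105), with a Spearman's coefficient of -0.67. In the 4 PBS libraries alone these values were 0.46 and 0.74, and in the 5 DOX libraries they were -0.87 and -0.80. Chi-square per degree of freedom in PBS was only 2.02 for Jund, 1.51 for Junb and 0.0793 for Nr4a1. The PBS values of r can thus not be told from counting error. The difference between the groups was not tested.

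**Figure D4:**
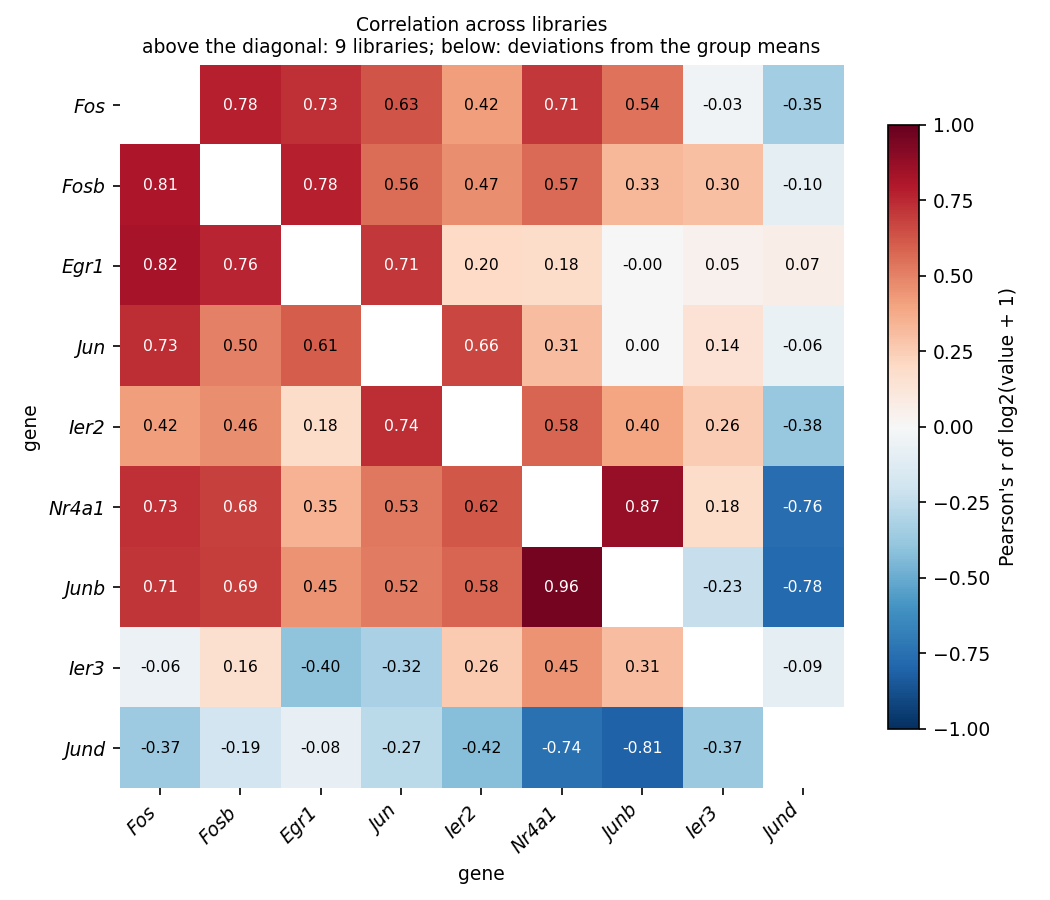
Pearson's r of log2(value + 1) between the 9 tested genes (both axes), with red for positive and blue for negative values. Fields above the diagonal use the 9 libraries and those below it the deviations from the PBS and DOX means; Jund, in the last row and column, is negative with 7 of 8 genes above the diagonal and with all 8 below it.

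**Figure D5:**
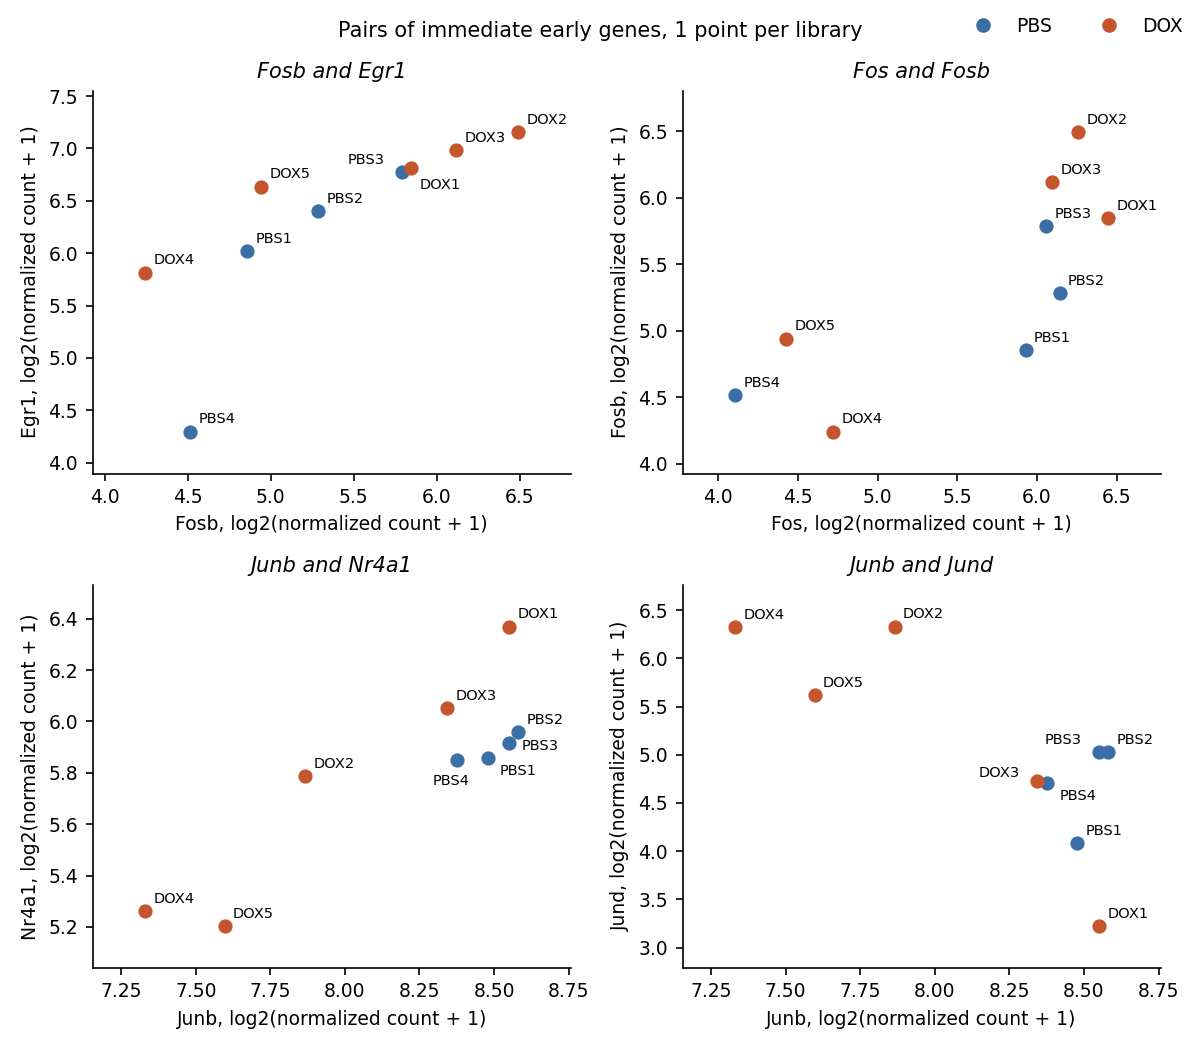
Log2(normalized count + 1) of 4 gene pairs, with 1 point per library, PBS in blue and DOX in orange. Fosb and Egr1 rise together except for PBS4, Fos and Fosb split into 3 low and 6 high libraries, and DOX4 and DOX5 set the low end of Junb and Nr4a1 while Jund is high in DOX2, DOX4 and DOX5.

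Averaged over the 9 tested genes, log2(value + 1) was 5.16, 5.26, 5.63 and 4.79 in PBS1 to PBS4 and 5.77, 5.91, 5.90, 5.15 and 5.02 in DOX1 to DOX5. DOX1 to DOX3 were above all PBS libraries, and PBS4 was the lowest of the 9. PBS4 held the lowest value of 3 genes, and DOX4 and DOX5 of 2 each, while DOX1, DOX2 and DOX3 held the highest values of 8 genes between them. Among 2595 other tested genes, those whose deviations from the group means most resembled those of this average were 4932441J04Rik (r 0.96), Nedd4 (0.95), Kmt2a (0.94), Gm19241 (0.91) and Aup1 (0.90), over 9 libraries. They are the 5 highest of all genes compared, picked for this r, and are given as a description with no test. On the values themselves their r with the average was lower, at 0.86, 0.79, 0.77, 0.73 and 0.42. Nedd4 encodes a ubiquitin ligase and Kmt2a a histone methyltransferase. Their log2 fold changes were 0.02, -0.23, -0.45, -1.07 and -0.61, with standard errors of 1.29, 0.66, 1.17, 1.64 and 0.49.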

How the data were processed

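RNA of sorted lung fibroblasts was made into MARS-seq libraries and sequenced on an Illumina NovaSeq. The authors used STAR for mapping to mm10, HTSeq-count for counting and a RefSeq annotation. Their versions, the strand setting and any collapse of molecular tags were not given in the sources used here. As deposited, the signal of a gene is its reads over the library's size factor. In each library 100% of the deposited values were whole multiples of 1 step (tolerance 1e-06), which returned read totals of 432322 to 1285816. At a value of 10 the counting CV was 22.6% to 44.0%. The counting CV covers counting error only, whereas the intervals of fold changes are those of limma, from the spread between libraries. Repeated symbols (119) were summed.

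The test of DOX against PBS was limma 3.58.1 (R 4.3.3), two-sided, on log2(value + 1) with a trend of variance on mean, over genes reaching 10 in 4 or more libraries. P-values were adjusted over all of these (Benjamini-Hochberg, threshold 0.05). A fold change on this scale understates that of low genes. Recovered reads entered edgeR 4.0.16, DESeq2 1.42.0 and limma-voom. Correlations were tested by exact permutation of libraries (362880 pairings, or 2880 within groups) with SciPy 1.17.1 (Python 3.11.15, NumPy 2.4.6, pandas 2.3.3). The steps across genes were tested on simulated counts. The members and gene lists were chosen with earlier results of these data known. Genes named are the members, up to 4 tested genes of lowest p per list and the 5 most like the members' average. Genes on the other strand, the share of Junb and others named were chosen after their values were seen. GENCODE M21, which held 96.8% of the symbols, gave coordinates. No 2 libraries of a group held identical values, and chi-square per degree of freedom between their reads was 8.51 or more. The labels call the samples biological replicates. Alternatives covered pseudocount, filter, scaling, test, library weights, libraries left out and the replicate number as a block.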

Additional observations from a re-analysis of the deposited data

Results flagged for a closer look

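In each group the highest and lowest library were compared with the rest by Dixon's ratio, for the named genes and the summed marker lists. Of 110 groups examined 10 stood out, and chance gives about 1 in 20. None of the 10 immediate early genes was among them.

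Of the named genes, Maff was at 32.1 in DOX4 against 18.4 to 22.3 in the other DOX libraries, Rhob at 59.2 in DOX3 against 29.0 to 36.6, Mapk3 at 13.3 in DOX5 against 3.87 to 6.50 and Fgfr1 at 53.8 in DOX5 against 7.74 to 15.8. In PBS, Ccl2 was at 34.8 in PBS2 against 13.9 to 16.2, and Aup1 at 40.4 in PBS3 against 18.6 to 22.0. PBS4 was far above the other PBS libraries in summed granulocyte markers (1174 against 33.8 to 37.0), pan-immune markers (344 against 10.6 to 13.9), epithelial markers (483 against 15.8 to 36.6) and red blood cell markers (81.8 against 0 to 6.31). The part of these cells in the values of the immediate early genes in PBS4 was not tested.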

How the results depend on the processing

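No alternative passed any of the 10 genes, and among all genes the fit with no filter passed 3 (459 at an unadjusted p under 0.05), for which the cause was not tested. The lowest unadjusted p, all by limma, was 0.018 for Junb and 0.042 for Jund, both without DOX1. It was 0.035 for Egr1 without PBS3 and 0.036 for Jun with the replicate block. No other gene of the 10 was under 0.05. Of all 2604 genes, 172 were under 0.05 without DOX1, 139 without PBS3 and 161 with the block. Of the 9 genes tested, the number with a higher mean in DOX was 7 with the pseudocounts, scalings, edgeR, DESeq2 and no filter, 6 with limma-voom and array weights, and 5 with the stricter filter, which left fewer genes, and without PBS4 and DOX2. Atf3 could also be fitted with no filter and with DESeq2, at 0.24 and 0.26. With each library left out it was 5 to 7, and the median log2 fold change was 0.18 to 0.64. The mean r of pairs was 0.21 to 0.29 over its alternatives. Log2 fold changes that changed sign, none passing, were those of Fos with limma-voom (-0.084), array weights (-0.025) and without PBS4 and DOX2 together (-0.62); Fosb (-0.023), Klf4 (-0.11) and Dusp1 (-0.29) without PBS4 and DOX2 together; and 4932441J04Rik with a pseudocount of 0.5 (-0.029), TMM scaling (-0.014), limma-voom (-0.91) and without PBS4 and DOX2 (-1.68). The cause was not tested. With each library left out, the values ranged from -0.45 to 0.32 for Fos, -0.13 to 0.34 for Ier2, -0.022 to 0.58 for Klf4, -0.55 to 0.026 for Csrnp1, -0.12 to 0.82 for Dusp1, -0.24 to 0.54 for Fgfr1, -0.16 to 1.17 for Ccnd1, -0.36 to 0.022 for Cxcl1, -1.01 to 0.79 for 4932441J04Rik, -0.67 to 0.013 for Nedd4 and -1.07 to 0.11 for Kmt2a.

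The deviations of same-numbered PBS and DOX libraries had a low r, above 0 each time (0.07, 0.04, 0.02 and 0.06 for numbers 1 to 4). The numbers were not taken as pairs, and whether the libraries were paired was not tested. With the replicate number as a block in limma, without DOX5, 0 of 2604 genes passed and 161 had an unadjusted p under 0.05. Among the 161 were Jun (unadjusted p = 0.036) and Egr1 (unadjusted p = 0.039), both with an adjusted p of 0.790. In that fit the median of the 9 tested immediate early genes was 0.44, and the signs of Csrnp1 (0.026), Cxcl1 (0.022) and Fgfr1 (-0.24) changed. PBS libraries 1, 2 and 4 correlated best with the DOX library of their own number, and PBS3 with DOX2.

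Depth limits the lowest genes most. Atf3 had 57 reads in all, Ier3 127 and Ier2 150, against 2853 for Junb. Intervals of the log2 fold change reached from -1.09 to 1.154 for Fos and from -0.33 to 2.31 for Ier3, so that changes of these sizes could not be told from none.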
